A study of Homo sapiens with 6 samples.

Results

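The 35 genes described here carry out homologous recombination and the Fanconi repair of DNA crosslinks. They were found by gene name in a table of 58735 genes, and each of the 35 names matched 1 row. The list was drawn up by function and was selected on measured values too, since the log2 fold changes and calls of the same comparison were known when it was chosen. The folds and calls below therefore describe these libraries and support nothing beyond them.

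The cells were ACHN, an established human renal carcinoma line with the label wild-type, which the submitters call clear cell renal cell carcinoma. A group of 3 libraries came from cells given curcumol, a sesquiterpenoid of Curcuma rhizomes, and a group of 3 came from control cells. The sample labels call the control a vehicle control, whereas the design text says that it received no drug. Neither dose nor length of treatment is stated in the labels. All libraries hold poly(A)-selected RNA of a single cell line.

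A break through both strands of DNA can be mended without loss when its ends are trimmed and the bare strand is paired with the sister chromatid, which is then copied. The BRCA proteins and the BCDX2 and CX3 complexes help with that pairing. Where a crosslink ties the strands together, the Fanconi core complex attaches ubiquitin to the FANCD2 and FANCI pair, nucleases cut the crosslink out, and recombination mends the remaining break. Many of these genes are transcribed most strongly around S phase, when a sister chromatid is present.

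Library totals ran from 16962012 to 17827433 counts, and the filter on low counts kept 15160 genes. Values are CPM, which are counts put on a common library size, after TMM scaling, and a gene is said to have risen or fallen in curcumol where the edgeR quasi-likelihood test gave an adjusted p under 0.05 over all tested genes. Of all tested genes, 5967 rose and 6109 fell, or 4818 and 7372 when library totals alone set the scale. Library totals moved the median log2 fold change of all tested genes to -0.28, against -0.02 with TMM scaling. Of 12 kidney epithelial markers 11 were tested. Against 40.3% falls and 39.4% rises over all tested genes, 7 of these markers (63.6%) fell and 2 (18.2%) rose. Among those that fell were KRT8 (1330 ± 82.5 CPM in curcumol and 1970 ± 66.1 CPM in control) and PAX8 (60.1 ± 3.38 CPM in curcumol and 192 ± 4.49 CPM in control, SD, n = 3 each), GGT1 (1.13) and CUBN (2.31) rose on the log2 scale, CDH1 stood at 1.24 CPM in curcumol and 1.95 CPM in control, and LRP2 was at 0. The 12 summed to 3080 to 3520 CPM in curcumol and 4390 to 4730 CPM in control. That list and its sum also hold VIM (938 CPM in curcumol and 1250 CPM in control) and CDH2 (153 CPM in curcumol and 193 CPM in control). Neither VIM nor CDH2 is particular to epithelium, and both are among the 7 that fell. The 7 markers of clear cell carcinoma summed to 202 to 228 CPM in curcumol and 102 to 108 CPM in control. VEGFA (102 CPM in curcumol and 35.7 CPM in control) and ANGPTL4 (97.5 CPM in curcumol and 41.4 CPM in control) made up most of the sum in both groups. Of the 5 tested, 3 (60%) were called higher and 1 (20%) lower, against 39.4% and 40.3% of all tested genes. EGLN3 was called higher on few counts (1.35 CPM in curcumol and 0.104 CPM in control). CD70 stood at 12.5 CPM in curcumol and 25.7 CPM in control, and NDUFA4L2 at 1.82 CPM in curcumol and 1.79 CPM in control. CA9 stood at 0.105 CPM in curcumol and 0.0172 CPM in control. Summed levels of 6 immune markers ran from 6.28 to 6.91 CPM in curcumol and from 0.155 to 0.258 CPM in control. CD14 (4.54 CPM in curcumol and 0.086 CPM in control) and CD79A (1.29 CPM in curcumol and 0.0179 CPM in control) made up most of that sum in curcumol and were called higher, while CD3E was at 0 in all libraries. The 6 fibroblast markers summed to 7.69 to 22.0 CPM in curcumol and 7.07 to 8.29 CPM in control. Curcumol replicate 2 stood apart in them, with 70 counts of COL1A2 where the other curcumol libraries had 1 and 0, and COL3A1 had 28, 58 and 23 counts in the curcumol libraries and 0 in each control library. Of these markers 3 were tested. COL3A1 and PDGFRB (5.90 CPM in curcumol and 2.48 CPM in control) were called higher, and COL1A1 (2.25 CPM in curcumol and 4.98 CPM in control) was called lower. The 5 endothelial markers summed to 0.128 to 0.947 CPM in curcumol and 0.0516 to 0.155 CPM in control. The part of these marker levels in the results was not tested.

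All 35 genes passed the filter on low counts. In curcumol 23 of them fell, 7 rose and 5 did not pass (edgeR). The 23 that fell are 65.7% of the genes, against 40.3% of all tested genes that fell. The 7 that rose are 20% of the genes, against 39.4% of all tested genes. Their median log2 fold change was -0.63, where that of all tested genes was -0.02. A fall of at least 2-fold was seen for 14 of the 35, against 23.1% of all tested genes, and one of at least 4-fold for 3 of the 35, against 8.19%. The 3 curcumol libraries lay all below the 3 control libraries for 23 of the 35 (41.1% of all tested genes) and all above them for 6 (39.8%), so that 29 did not overlap in either direction, against 81% of all tested genes. Summed over the 35 genes, the level was 928.7, 1045 and 1026 CPM in the curcumol libraries, against 1342, 1301 and 1434 CPM in the control libraries. RNA of a whole culture was measured, so fewer cells in S phase and less of these mRNAs per cell cannot be told apart. Genes of proliferation and S phase moved in the same libraries: of 14 such genes 12 fell (85.7%) and 0 rose (edgeR), against 40.3% and 39.4% of all tested genes. MKI67 stood at a log2 fold change of -1.25 ± 0.06 and E2F1 at -1.91 ± 0.12 (SE). PCNA stood at -0.06 ± 0.06 (edgeR adjusted p = 0.393) with TMM scaling, and at -0.32 (edgeR adjusted p = 3.06e-05) with library totals. The summed level of these 14 genes ran from 1260 to 1370 CPM in curcumol and from 2690 to 2840 CPM in control, and its part in the results was not tested.

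**Figure D1:**
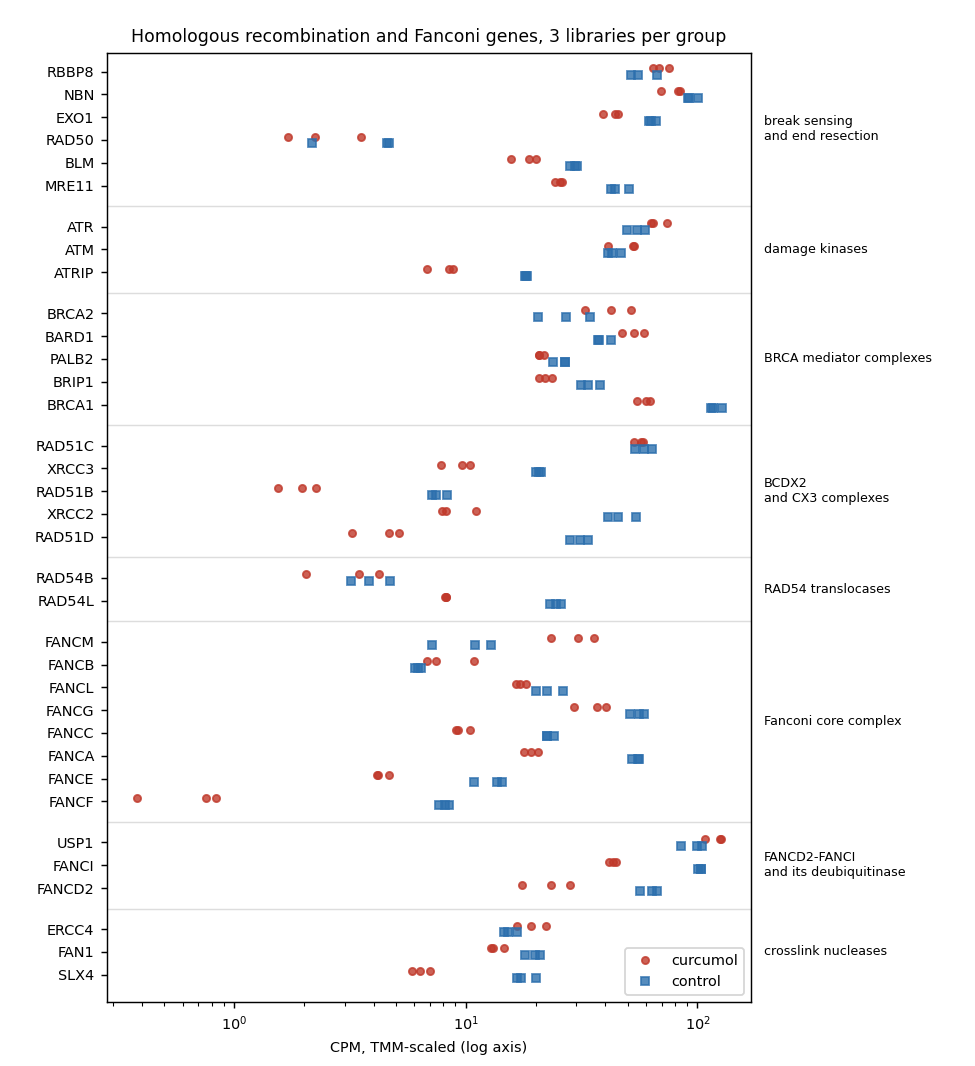
CPM of each of the 35 genes in each library on a log axis, by role, with curcumol as circles and control as squares. FANCF, RAD51D and XRCC2 show the widest gaps, and FANCM is the gene whose curcumol libraries lie furthest above control.

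The sensors of a break and the enzymes that trim its ends fell in part. MRE11, the nuclease of the complex that first binds a break, fell, with 24.3, 25.6 and 26.1 CPM in the curcumol libraries against 43.9, 42.5 and 50.8 CPM in the control libraries. Its log2 fold change was -0.85 ± 0.09 (SE). NBN, the subunit of that complex that recruits ATM, fell by less, with a log2 fold change of -0.27 ± 0.08. EXO1, a nuclease that extends the trimmed stretch, fell by 0.57 ± 0.08 on the log2 scale. BLM, a helicase of trimming and of the undoing of joined strands, fell by 0.69 ± 0.10 on that scale. None of these 4 genes had overlapping groups, but the groups did not overlap for 81% of all tested genes either.

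RBBP8 encodes CtIP, the cofactor that lets MRE11 start to trim. It had 68.3, 75.2 and 64.3 CPM in the curcumol libraries, against 55.6, 51.7 and 67.2 CPM in the control libraries, and the groups overlapped. Its rise of 0.25 ± 0.09 (SE, log2) passed with an edgeR adjusted p of 0.0145, but not without control replicate 1 (0.21, adjusted p = 0.0684), control replicate 2 (0.17, adjusted p = 0.107) or curcumol replicate 2 (0.19, adjusted p = 0.0885), each by edgeR. With library totals it stood at -0.01, and with an offset for GC content it fell, at -0.31.

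RAD50, the coiled-coil subunit that holds the ends together, was barely counted. It had 2.24, 3.52 and 1.70 CPM in the curcumol libraries and 4.68, 2.17 and 4.59 CPM in the control libraries, with overlapping groups and a log2 fold change of -0.61 ± 0.30 (edgeR adjusted p = 0.0718). It passed without control replicate 2 (-0.90, edgeR adjusted p = 0.00562) and without curcumol replicate 2 (-0.94, edgeR adjusted p = 0.0151). In the annotation, 79.7% of the exon length of RAD50 also belongs to AC116366.3, a protein-coding gene on the same strand, which itself averaged 0.0423 CPM in curcumol and 0.0688 CPM in control. How reads that match both genes were counted is not stated, so the level of RAD50 is uncertain.

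The kinases that answer a break differed from the partner that brings one of them to DNA. ATM, the kinase activated by broken ends, had 40.9, 52.6 and 53 CPM in the curcumol libraries and 42.7, 41.2 and 47.0 CPM in the control libraries, which overlap. Its log2 fold change was 0.16 ± 0.09 (edgeR adjusted p = 0.121), or 0.28 without curcumol replicate 1 (edgeR adjusted p = 0.00331). ATR, the kinase activated by bare single strands, rose, with 64.2, 74.0 and 63.3 CPM in the curcumol libraries against 54.8, 49.5 and 59.6 CPM in the control libraries. The rise was 0.30 ± 0.08 (SE, log2) with TMM scaling, did not pass with library totals (0.03, edgeR adjusted p = 0.73) and turned to -0.29 with a GC offset. ATRIP, which ties ATR to the coated strand, fell clearly below control.

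ATRIP had 8.46, 8.79 and 6.82 CPM in the curcumol libraries, against 18.3, 18.2 and 18.1 CPM in the control libraries. The control libraries were nearly equal and the highest curcumol library stood well under them, a log2 fold change of -1.18 ± 0.12 (SE). All exons of TREX1, an exonuclease gene with 0 counts in every library, also belong to ATRIP, so the counts of these genes cannot be told apart.

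The BRCA complexes were split. BRCA1, a ubiquitin ligase that promotes trimming and the steps after it (ENSG00000012048, chromosome 17, 43044295 to 43170245, GRCh38), fell, with 54.6, 59.8 and 62.3 CPM in the curcumol libraries against 117, 114 and 127 CPM in the control libraries. Every curcumol library lay far below every control library, and the log2 fold change was -1.02 ± 0.07 (SE). BARD1, which pairs with BRCA1 to form the active ligase, had 47.2, 53 and 58.6 CPM in the curcumol libraries against 37.3, 37.6 and 42.4 CPM in the control libraries. It rose by 0.44 ± 0.09 (SE, log2), a rise that did not pass with library totals (0.17, edgeR adjusted p = 0.0905) and turned to -0.13 with a GC offset (edgeR adjusted p = 0.094). Per kilobase of exon, BRCA1 stood at 0.763, 0.745 and 0.702 times the level of BARD1 in the curcumol libraries, against 2.07, 2 and 1.97 times in the control libraries. The ratio within a library does not depend on how whole libraries are scaled. It was lower in all 3 curcumol libraries than in any control library. That follows from the values of BRCA1 and BARD1 already given and adds no separate support. Which of these partners is higher in curcumol depends on the division by exon length (9187 bases for BRCA1 and 6067 bases for BARD1), since by CPM BRCA1 stayed above BARD1 in all 6 libraries.

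BRCA2, a mediator that acts on the bare strand (ENSG00000139618, chromosome 13, 32315474 to 32400266), varied widely. It had 32.6, 51.9 and 42.2 CPM in the curcumol libraries and 27.1, 20.5 and 34.4 CPM in the control libraries. The lowest curcumol library lay below the highest control library, and the log2 fold change of 0.63 ± 0.25 did not pass (edgeR adjusted p = 0.0629). It passed without control replicate 2 (0.46, edgeR adjusted p = 0.0204), control replicate 3 (0.82, edgeR adjusted p = 0.0018) or curcumol replicate 1 (0.79, edgeR adjusted p = 0.0391), and also with DESeq2 (0.64, adjusted p = 0.0386). With a GC offset it stood at -0.11 (edgeR adjusted p = 0.598). PALB2, the bridge between BRCA1 and BRCA2, fell by 0.29 ± 0.10 on the log2 scale. BRIP1, a helicase bound by BRCA1, fell by 0.63 ± 0.10 on that scale. Neither PALB2 nor BRIP1 had overlapping groups, as was so for 81% of all tested genes.

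**Figure D2:**
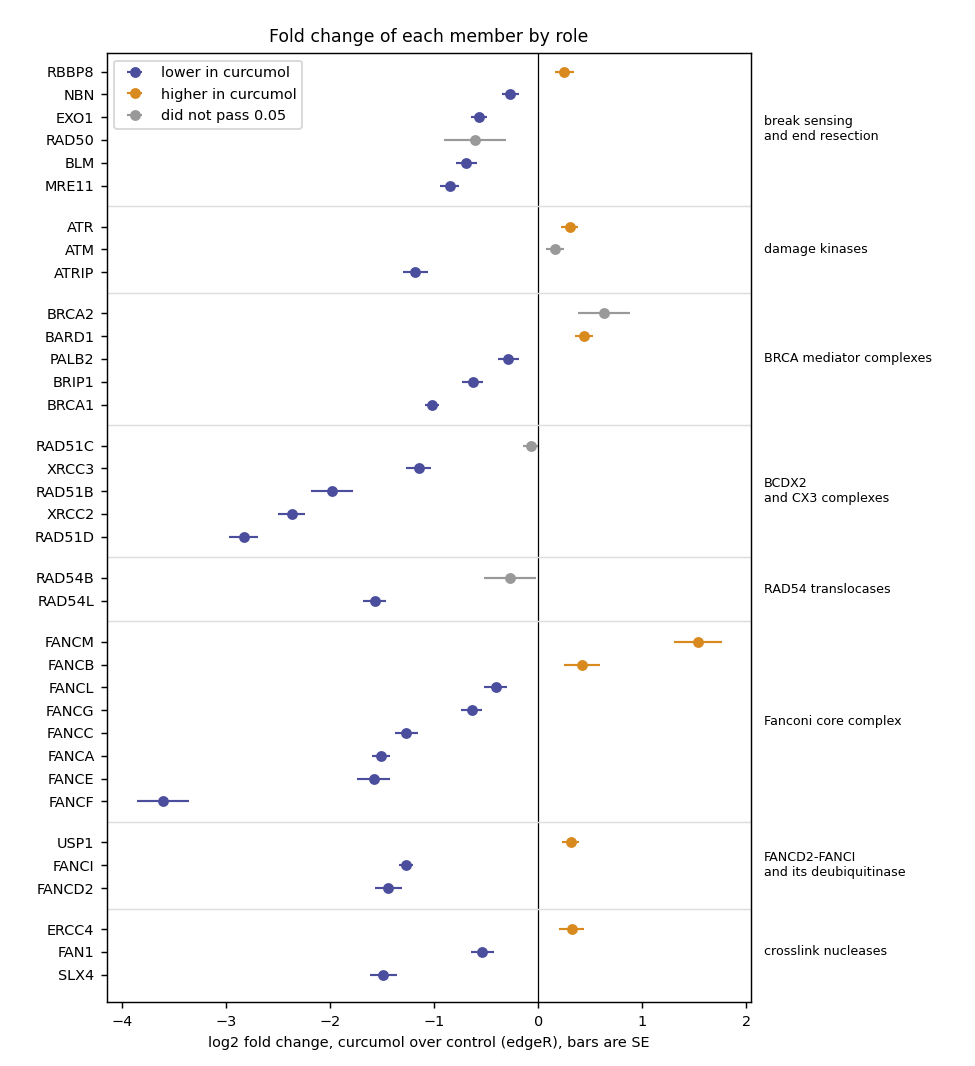
Log2 fold change of each gene, curcumol over control, with its SE from the edgeR fit, by role. The genes of the BCDX2 and CX3 complexes range from -2.83 for RAD51D to -0.07 for RAD51C, and the Fanconi core from -3.61 for FANCF to 1.53 for FANCM.

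The genes of the BCDX2 complex (RAD51B, RAD51C, RAD51D and XRCC2) and of the CX3 complex (RAD51C and XRCC3), which promote strand pairing, had the lowest median of the role groups: 4 of 5 fell, 0 rose, and their median log2 fold change was -1.98. The falls are 80% of this small group, against 40.3% of all tested genes. RAD51D (ENSG00000185379, chromosome 17, 35092208 to 35121522) had 4.68, 5.15 and 3.22 CPM in the curcumol libraries, against 28.1, 33.6 and 31.2 CPM in the control libraries, a log2 fold change of -2.83 ± 0.14 (SE). XRCC2, its direct partner (ENSG00000196584, chromosome 7, 152644779 to 152676165), had 7.88, 8.23 and 11.1 CPM in the curcumol libraries, against 45.3, 41.3 and 54.5 CPM in the control libraries. Its log2 fold change was -2.37 ± 0.13 (SE), and the groups of both genes lay far apart. RAD51B, with 1.54, 2.26 and 1.96 CPM in the curcumol libraries against 7.43, 7.17 and 8.26 CPM in the control libraries, changed by -1.98 ± 0.20. XRCC3 changed by -1.15 ± 0.12 with TMM scaling and by -0.51 with a GC offset. KLC1, on the other strand, shares 76.7% of the exon length of XRCC3, so counts of that gene are uncertain where strand was not used. RAD51C, the subunit common to both complexes, stood apart.

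RAD51C had 57.1, 53 and 58.1 CPM in the curcumol libraries and 58.7, 53.9 and 63.5 CPM in the control libraries. The groups overlapped, with a log2 fold change of -0.07 ± 0.08 (edgeR adjusted p = 0.442). It passed as a fall at -0.33 with library totals, and at -0.50 with the GC offset. Per kilobase of exon, XRCC2 stood at 0.173, 0.194 and 0.239 times the level of RAD51C in the curcumol libraries, against 0.964, 0.959 and 1.07 times in the control libraries.

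Of the 2 RAD54 translocases, which help a strand invade the sister duplex, 1 fell (50%, against 40.3% of all tested genes). RAD54L had 8.2, 8.23 and 8.15 CPM in the curcumol libraries, against 25.7, 23.0 and 24.4 CPM in the control libraries. The curcumol libraries agree within less than the spread of the control libraries, and the log2 fold change was -1.57 ± 0.11 (SE). LRRC41 shares 25.1% of its exon length on the other strand and rose by 0.35 ± 0.08. RAD54B had 2.05, 3.45 and 4.23 CPM in the curcumol libraries and 3.82, 3.20 and 4.70 CPM in the control libraries, which overlap, and it did not pass (-0.27 ± 0.25, edgeR adjusted p = 0.325). It shares 59.1% of its exon length with FSBP on the same strand, and with a GC offset it fell (-1).

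In the Fanconi core complex, the ubiquitin ligase of crosslink repair, 6 of 8 genes fell and 2 rose. These are 75% and 25%, against 40.3% and 39.4% of all tested genes. FANCF, an adaptor within the core (ENSG00000183161, chromosome 11, 22622890 to 22625841), fell most of the 35 genes. It had 0.833, 0.753 and 0.379 CPM in the curcumol libraries, against 7.64, 8.10 and 8.47 CPM in the control libraries, which are 13, 12 and 6 counts against 142, 157 and 164 counts. Its mean was 12.3 times higher in control, and its log2 fold change was -3.61 ± 0.25 (SE). FANCF is the member with a single exon. FANCA, a large subunit bound by FANCG, had 17.9, 19.1 and 20.6 CPM in the curcumol libraries, against 55.5, 56.0 and 52.2 CPM in the control libraries, and changed by -1.51 ± 0.09. FANCE, which links the core to FANCD2, changed by -1.58 ± 0.16 and its partner FANCC by -1.27 ± 0.11. FANCG, the scaffold for FANCA, changed by -0.64 ± 0.10, or -0.23 with a GC offset. FANCL, the ligase subunit itself, changed by -0.41 ± 0.11. None of these 6 genes had overlapping groups, but neither did 81% of all tested genes. ZNF276 shares 23.6% of the exon length of FANCA on the other strand, and such sharing also touches ERCC4 (25.7%, AC010401.1) and FAN1 (24.3%, MTMR10), so their counts are uncertain where strand was not used.

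FANCM, the translocase that anchors the core on DNA (ENSG00000187790, chromosome 14, 45135940 to 45200890), rose. It had 23.4, 30.5 and 35.9 CPM in the curcumol libraries, against 11, 7.12 and 12.9 CPM in the control libraries. The lowest curcumol library was well above the highest control library, although both groups spread widely, and the log2 fold change was 1.53 ± 0.23 (SE), or 0.85 with a GC offset. Per kilobase of exon, FANCM stood at 1.5, 1.84 and 2 times the level of FANCA in the curcumol libraries, against 0.228, 0.146 and 0.283 times in the control libraries. FANCB, which steadies FANCL in the core, had 7.43, 6.78 and 10.9 CPM in the curcumol libraries against 6.03, 6.40 and 6.25 CPM in the control libraries. Its rise of 0.42 ± 0.17 (SE, log2) passed narrowly (edgeR adjusted p = 0.0296). It was lost without control replicate 1 (0.39, edgeR adjusted p = 0.0799), control replicate 2 (0.45, edgeR adjusted p = 0.0514), control replicate 3 (0.41, edgeR adjusted p = 0.0631) and curcumol replicate 3 (0.20, edgeR adjusted p = 0.298). It was also lost with library totals. It stood at -0.31 with a GC offset (edgeR adjusted p = 0.0917).

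**Figure D3:**
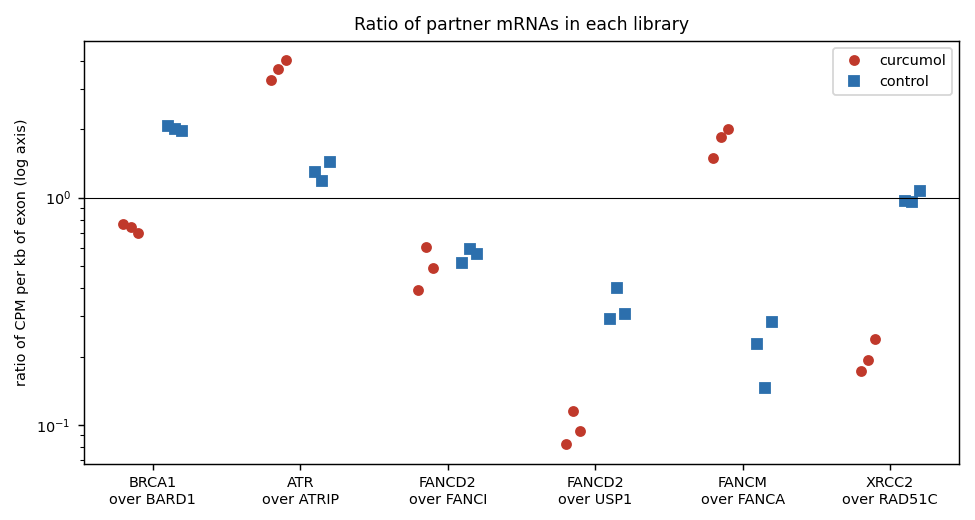
Ratio of the CPM per kilobase of exon of partner genes in each library, on a log axis, for 6 pairs. BRCA1 over BARD1, ATR over ATRIP, FANCD2 over USP1, FANCM over FANCA and XRCC2 over RAD51C separate the groups. FANCD2 over FANCI overlaps between them. The pairs were chosen after their values were seen, so the ratios are a description only.

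The FANCD2 and FANCI pair, the target of the core, fell together. FANCD2 (ENSG00000144554, chromosome 3, 10026414 to 10101930) had 17.5, 28.3 and 23.4 CPM in the curcumol libraries, against 56.7, 67.1 and 63.4 CPM in the control libraries, a log2 fold change of -1.44 ± 0.13 (SE). FANCI had 41.4, 43.0 and 44.3 CPM in the curcumol libraries, against 101, 104 and 104 CPM in the control libraries, a log2 fold change of -1.27 ± 0.07. Both genes were far below control in every curcumol library. Per kilobase of exon, FANCD2 stood at 0.392, 0.609 and 0.489 times the level of FANCI in the curcumol libraries and 0.518, 0.597 and 0.563 times in the control libraries, ranges that overlap. USP1, the enzyme that removes their ubiquitin again, was the most abundant of the 35 per kilobase of exon in both groups. It had 108, 125 and 126 CPM in the curcumol libraries, against 99.1, 85.1 and 105 CPM in the control libraries, all higher but by a small margin. Its rise of 0.31 ± 0.08 (SE, log2) did not pass with library totals (0.05, edgeR adjusted p = 0.599) and turned to -0.27 with a GC offset. FANCD2 stood at 0.0821, 0.115 and 0.0942 times the level of USP1 per kilobase in the curcumol libraries, against 0.291, 0.401 and 0.307 times in the control libraries.

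Of the 3 crosslink nucleases 2 fell and 1 rose, too few to set against the 40.3% and 39.4% of all tested genes. SLX4, the scaffold that gathers nucleases at a crosslink, had 6.34, 7.03 and 5.87 CPM in the curcumol libraries, against 20.1, 17.3 and 16.6 CPM in the control libraries. It was well below control throughout, with a log2 fold change of -1.49 ± 0.13 (SE). FAN1, a nuclease that binds ubiquitin on FANCD2, changed by -0.54 ± 0.11. ERCC4 encodes XPF, the catalytic partner of ERCC1 that cuts beside the crosslink. It had 16.7, 22.3 and 19.1 CPM in the curcumol libraries, against 15.2, 16.7 and 14.6 CPM in the control libraries, so that the lowest curcumol library and the highest control library were level at these digits. Its rise of 0.32 ± 0.12 (SE, log2, edgeR adjusted p = 0.0155) was lost without control replicate 1 (0.30, adjusted p = 0.0541), control replicate 3 (0.27, adjusted p = 0.0713) or curcumol replicate 2 (0.22, adjusted p = 0.121), and with library totals (0.06, adjusted p = 0.648), each by edgeR. With a GC offset it stood at -0.16 (edgeR adjusted p = 0.19).

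Per kilobase of exon, levels in control ran from 0.390 CPM for RAD50 to 22.6 CPM for USP1, and levels in curcumol from 0.222 CPM for FANCF to 28.1 CPM for USP1. XRCC2 ranked 25 of 35 in curcumol and 8 of 35 in control. FANCM ranked 13 in curcumol and 32 in control, and BRCA2 ranked 14 in curcumol and 26 in control. NBN, EXO1 and FANCG stayed among the 5 most abundant in both groups.

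The log2 fold change of the members varied with base composition. Across the 35 genes the log2 fold change had a Spearman correlation of -0.73 with the GC content of their transcripts, and across 15154 tested genes the correlation was -0.35. These points share the same 6 libraries and are not independent replicates. The members are AT-rich, with a median GC content of 42.4% against 48.9% for all tested genes. Tested genes were split by GC content into 3 classes of nearly equal size. In the lowest class, up to 44.8%, 23.3% of genes fell and the median log2 fold change was 0.46. The 25 members in that class had 13 falls and 7 rises, with a median of -0.29. Every rise among the members lies there, in the class that holds most of the members and has the smallest share of falls. The share of all its genes that rose was not worked out, so nothing is drawn from where the rises lie. The 4 members in the middle class all fell, where 39.1% of all its genes did. The 6 members in the highest class, FANCA, FANCE, FANCG, SLX4, ATRIP and XRCC3, all fell, where 58.4% of its genes did.

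**Figure D4:**
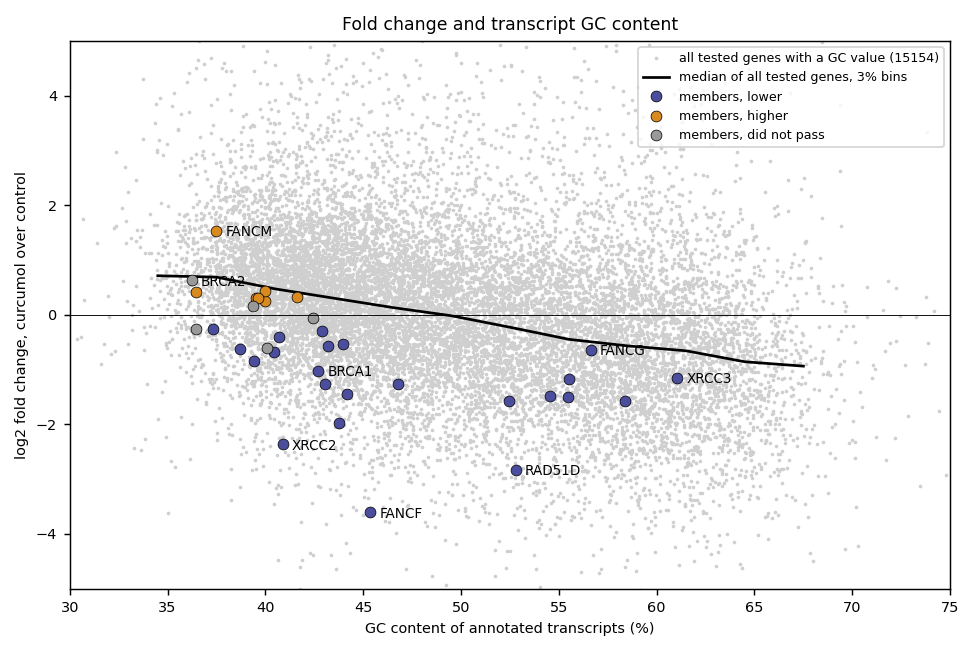
Log2 fold change, curcumol over control, against the GC content of annotated transcripts in percent, for all tested genes in grey with their median in 3% bins as a line, and for the 35 genes as coloured points. All 7 genes that rose lie at the AT-rich end, as do most of the members, and XRCC2 and FANCF lie far below the line at their GC content. Genes beyond the ends of the axes are not drawn.

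With an offset for GC content in the fit, 30 of the 35 genes fell, FANCM rose and 4 did not pass (BARD1, BRCA2, ERCC4 and FANCB), with a median of -0.96. Over all 15160 tested genes, that fit gave 6268 falls and 5760 rises, with a median of -0.06. With library totals 25 of the 35 fell, FANCM rose and 9 did not pass, with a median of -0.90. Library totals gave 7372 falls and 4818 rises over all 15160 tested genes, with a median of -0.28. The 23 falls and the rise of FANCM passed in the same direction under all 16 alternatives tried. The rises of RBBP8, ATR, USP1, ERCC4, FANCB and BARD1 did not pass with library totals, nor as rises with a GC offset.

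**Figure D5:**
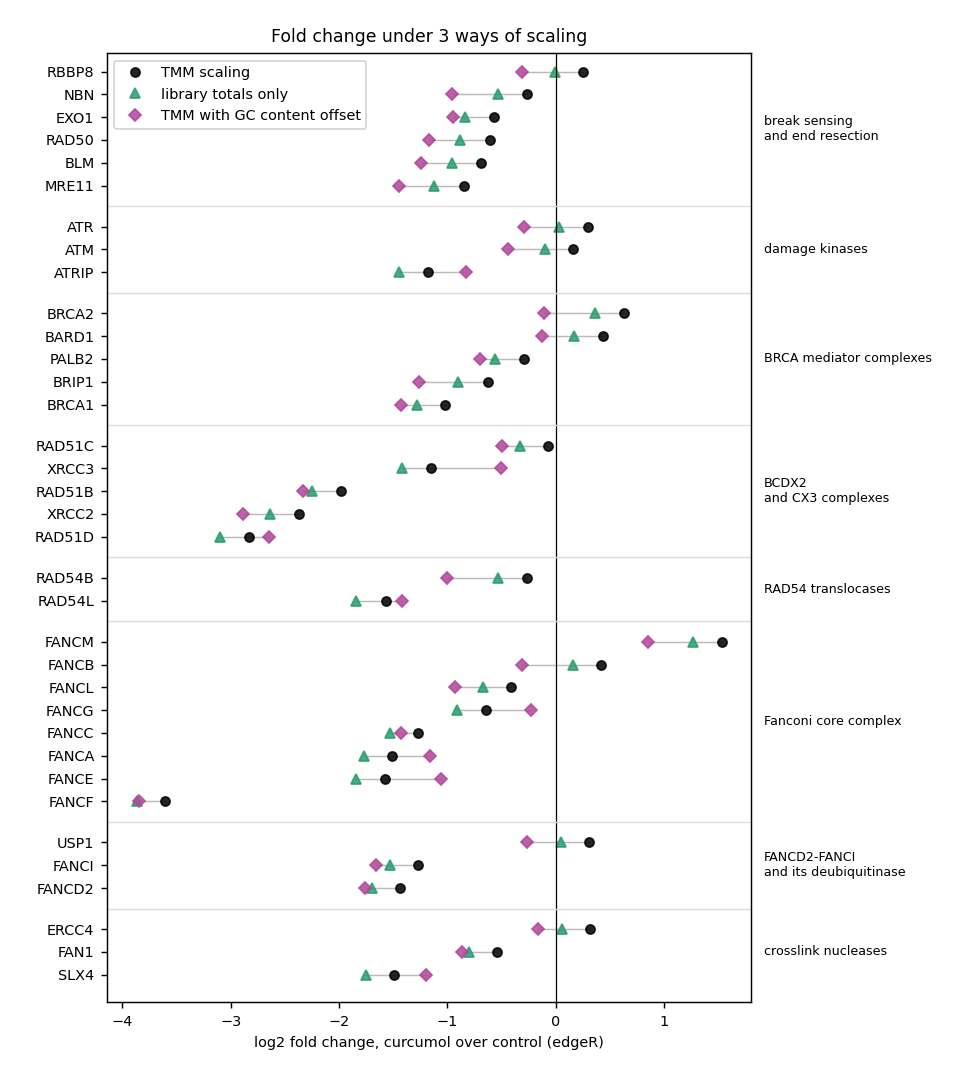
Log2 fold change of each gene under TMM scaling, library totals alone and TMM with a GC content offset. FANCM lies above 0 under all of them, while RBBP8, ATR, ATM, BRCA2, BARD1, FANCB, USP1 and ERCC4 lie above 0 with TMM and below 0 with the GC offset.

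The genes are also long, with a median span of 69900 bases against 28200 bases for all tested genes, and they have a median of 18 exons against 9 after joining overlapping ones. The span ran from 2952 bases for FANCF to 910440 bases for RAD51B. Among the 35 genes the log2 fold change had a Spearman correlation of 0.26 with span and of 0.06 with exon length.

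Promoters are shown for the gene with the lowest fold change (FANCF), the gene with the highest (FANCM) and the members whose windows hold an E2F word (FANCC and FANCA), so that their letters can be compared. RefSeq windows of the 250 bases before the start site (GRCh38.p14) were held for 32 of the 35 genes, all but FANCI, NBN and RAD54B. Some windows, such as those of RAD51B, RBBP8, RAD51D and FANCC, lie inside the annotated gene and not at its outermost start. The motif shares and GC content below pool all windows. The motifs searched, on both strands, were the E2F words TTTCCCGC, TTTCGCGC, TTTGCCGC and TTTGGCGC, bound by factors of S phase genes, the CHR words TTTGAA and TTCGAA of cell cycle genes, the CCAAT box, and the GC box GGGCGG. Matches of different motifs may share bases. Each promoter is written 5′ to 3′ on the strand of the gene, with matches to the E2F, CHR and CCAAT words on either strand in capitals. The FANCF window is chr11:22625824-22626073 (minus strand), FANCM chr14:45135680-45135929 (plus), FANCC chr9:95317710-95317959 (minus) and FANCA chr16:89816648-89816897 (minus).
FANCF: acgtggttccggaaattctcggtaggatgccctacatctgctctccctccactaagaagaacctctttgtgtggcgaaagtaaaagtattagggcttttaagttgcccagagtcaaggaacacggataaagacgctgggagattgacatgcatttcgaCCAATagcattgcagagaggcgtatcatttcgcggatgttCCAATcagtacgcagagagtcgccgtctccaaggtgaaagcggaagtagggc
FANCM: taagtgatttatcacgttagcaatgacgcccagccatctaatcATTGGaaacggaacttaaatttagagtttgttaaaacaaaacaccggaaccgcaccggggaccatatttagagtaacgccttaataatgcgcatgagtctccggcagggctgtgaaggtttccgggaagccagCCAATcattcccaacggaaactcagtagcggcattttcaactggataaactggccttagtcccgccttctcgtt
FANCC: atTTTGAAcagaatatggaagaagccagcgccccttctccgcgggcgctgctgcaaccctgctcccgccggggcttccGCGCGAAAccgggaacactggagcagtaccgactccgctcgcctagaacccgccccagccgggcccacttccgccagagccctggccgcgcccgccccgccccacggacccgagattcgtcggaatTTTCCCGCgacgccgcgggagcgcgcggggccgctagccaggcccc
FANCA: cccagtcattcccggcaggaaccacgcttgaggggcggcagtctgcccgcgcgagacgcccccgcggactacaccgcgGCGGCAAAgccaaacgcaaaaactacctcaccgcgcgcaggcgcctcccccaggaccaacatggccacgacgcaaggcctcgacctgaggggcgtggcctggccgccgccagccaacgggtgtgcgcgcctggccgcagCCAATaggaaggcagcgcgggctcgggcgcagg

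The windows of FANCF, which fell most, and of FANCM, which rose most, each hold 2 CCAAT matches and no E2F, CHR or GC box match. FANCC and FANCA, both lower in curcumol, are the members whose windows hold an E2F word, 2 of 32 members (6.25%) against 2.79% of 27305 promoters of the same length. A CHR word was found in the windows of FANCC, BRIP1 and ATM, 9.38% of members against 14.6% of all promoters. A CCAAT word was found for 12 members (37.5%, against 33% of all promoters), 9 of the 21 that fell, 2 of the 7 that rose and 1 of the 4 that did not pass. A GC box was found for 20 members (62.5%, against 42.3%), 16 of the 21 that fell, 4 of the 7 that rose and 0 of the 4 that did not pass. The windows of the members had a median GC content of 65.0%, against 58.0% for all promoters. A match is a description of letters, and nothing about a factor is drawn from it.

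Other genes of the same pathways moved in both directions. Of 36 tested genes from a list of 38 other recombination genes, 22 fell (61.1%) and 9 rose (25%), against 40.3% and 39.4% of all tested genes, with a median log2 fold change of -0.44. Falls included RECQL5 (-2.05 ± 0.12), a helicase that limits recombination, MND1 (-1.86 ± 0.18), a factor of meiotic recombination, and EME2 (-1.78 ± 0.15), a partner of the MUS81 nuclease. Rises included SEM1 (1.76 ± 0.07), the small acidic partner of BRCA2, RAD51AP1 (1.03 ± 0.07), which promotes strand invasion, and HELQ (1 ± 0.14), a helicase.

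Of 17 tested genes from a list of 18 other Fanconi genes, 8 fell (47.1%) and 5 rose (29.4%), and the median was -0.30. The share that fell is near the 40.3% of all tested genes. FAAP100 fell most (-3.12 ± 0.11, SE), with 5.60 ± 0.89 CPM in curcumol against 48.6 ± 0.497 CPM in control (SD, n = 3 each). It binds FANCB and FANCL in the core, so that its fall stands beside the values of FANCB (0.42) and FANCL (-0.41). FAAP20, which binds FANCA, changed by -2.06 ± 0.12, and UHRF1, a sensor of crosslinks, by -1.41 ± 0.07. REV3L, the catalytic subunit of a translesion polymerase, rose by 1.06 ± 0.14, WDR48, the activator of USP1, by 0.83 ± 0.08 and RFWD3, a ubiquitin ligase that acts on RPA, by 0.67 ± 0.06.

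Of 30 genes that signal breaks and hold the cell cycle, 11 fell (36.7%) and 12 rose (40%), shares near those of all tested genes, and the median was 0.04. PAGR1 (-2.61 ± 0.22), a partner of the PTIP protein, BABAM2 (-1.75 ± 0.10) and ABRAXAS1 (-1.55 ± 0.19), which both belong to the BRCA1-A complex, fell. UIMC1 (1.10 ± 0.08), the ubiquitin reader of that complex, rose, as did RAD9A (1.19 ± 0.10) of the checkpoint clamp and SHLD3 (1.62 ± 0.20) of shieldin, which limits trimming. The checkpoint kinase gene CHEK1 stood at -0.11 ± 0.07 (edgeR adjusted p = 0.179), and it fell at -0.38 with library totals, and at -0.55 with the GC offset. Falls and rises named in these 3 lists passed in the same direction under all alternatives tried.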

How the data were processed

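The deposited data are 1 table of raw, unscaled counts by Ensembl gene, from poly(A)-selected paired-end Illumina libraries, per the labels' protocols. Per the submitters' processing notes, reads were placed on GRCh38 (hg38). Which aligner, counter and annotation release were used, and whether strand was, is not given in the sources used here. All 58735 identifiers are in GENCODE 29, which gave coordinates, exon lengths (all exons of a gene joined), overlaps and transcript GC content.

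Samples were grouped by title into 3 curcumol and 3 control libraries, described as independent biological replicates. No 2 libraries of a group were one library deposited again (chi-square over degrees of freedom 3.48 to 8). Precision is limited by the spread between libraries (common biological coefficient of variation 0.0731) and, for members with few counts, by counting error.

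Genes were filtered with filterByExpr, scaled by TMM and tested with the robust quasi-likelihood F test of edgeR 4.0.16 (R 4.3.3). P-values were adjusted by Benjamini-Hochberg over 15160 genes, with a threshold of 0.05. SE was taken as |log2 fold change| over the root of F. On simulated counts the code was tested before use. In that simulation few genes changed, as many up as down, so it does not check the scaling where most tested genes changed.

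The members, the gene lists and the tests were chosen with earlier results of these data known, and no test over a list was made. Of 136 entries of the other lists, 3 matched by an older symbol, and 1 further gene is not reported here. All 35 members are accounted for. CPM per library is given for 7 members fixed by name, for the highest and lowest fold change of each role, and for members that did not pass. A few more, and the 6 partner pairs, were chosen after their values were seen. Of 3 other lists, the 3 largest rises and falls that passed with a mean of at least 50 counts are named. Alternatives were DESeq2 1.42.0, limma-voom (limma 3.58.1), other scalings and filters, a replicate block, offsets for GC content or exon length (spline, 5 degrees of freedom) and each library left out. Same-numbered libraries did not deviate together (correlations -0.012 to 0.075), so numbers were not taken as pairs.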

Additional observations from a re-analysis of the deposited data

How the results depend on the processing

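The number of members that fell was 23 with TMM scaling and 23 to 30 over the 16 alternatives, and it was 30 with the GC offset, with and without the replicate block. Over all tested genes, 6109 fell with TMM scaling, 6268 with the GC offset (6215 with the block) and 7372 with library totals. Rises over all tested genes were 5967, 5760 (5689 with the block) and 4818 in the same order. The number of members that rose was 7, and it was 1 with the GC offset (also with the replicate block) and 1 with library totals. It was 9 with the exon length offset. DESeq2 gave 7 rises too, but with BRCA2 among them, so the genes called were not all the same. Leaving out 1 library gave 4 to 9 rises, with 4 without control replicate 1. The median of -0.63 moved to -0.96 with the GC offset (also with the replicate block) and to -0.9 with library totals, and ran from -0.69 to -0.57 with 1 library left out. The replicate block alone left 23 falls, 7 rises and the median of -0.63. The titles give same-numbered libraries no link beyond the number. Of 560 single values for the 35 members, 506 kept direction and side of the threshold, 17 lost and 19 gained a call, and 18 turned. With the GC offset ATM turned to -0.44, BRCA2 to -0.11 (-0.1 with the block), ATR to -0.29, BARD1 to -0.13, ERCC4 to -0.16, FANCB to -0.31 (-0.32 with the block), RBBP8 to -0.31 and USP1 to -0.27, the others alike with the replicate block. With library totals RBBP8 turned to -0.01 and ATM to -0.1. Among neighbours, ZFYVE21 turned to 0.16 with the GC offset, DNASE1 to -0.12 with library totals and ANKRD49 to -0.01 with the GC offset and block. The 5 rises among other Fanconi genes were 3 with library totals and with the GC offset and block. The cause was not tested. Counting error limits FANCF, RAD50, RAD51B and RAD54B most.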

Other observations

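By the outermost annotated start of each gene, several members start within 1000 bases of another gene on the opposite strand. Both may share a start region where these starts are used. Which starts were used in these cells was not tested. In 11 such pairs both genes were tested. The calls were opposite in 6 pairs and the same in 2, and in 3 pairs at least 1 gene did not pass (edgeR). Over all 1513 such pairs of tested genes the calls were opposite in 21.9% and the same in 41.4%, and in 36.6% at least 1 gene did not pass. The 11 pairs were seen first and are few, and no test was made. NBR1, an autophagy receptor whose start lies 236 bases from the outermost annotated start of BRCA1, rose where BRCA1 fell. NBR1 had 204 ± 8.7 CPM in curcumol, against 131 ± 1.21 CPM in control (SD, n = 3 each). DCTN5, a dynactin subunit whose start lies 82 bases from that of PALB2, rose by 0.60 ± 0.07 on the log2 scale, where PALB2 fell. CIDECP, a pseudogene whose start lies 49 bases from that of FANCD2, rose by 2.04 ± 0.14. FKBP3, a prolyl isomerase beside FANCM, fell by 1.01 ± 0.10, where FANCM rose. ANKRD49 beside MRE11 rose by 0.65 ± 0.15, but stood at 0.00 with a GC offset, and FNDC8 beside RAD51D rose on very few counts. The RefSeq window of RAD51D (35119759 to 35120008) lies inside the annotated gene, so RAD51D and FNDC8 may not share a start region. FANCB and MOSPD2 (0.98 ± 0.11) both rose, and XRCC3 and ZFYVE21 (-0.23 ± 0.10) both fell, though the rise of FANCB was lost in several alternatives and ZFYVE21 turned to 0.16 with a GC offset. NPAT, a regulator of histone genes beside ATM, rose by 1.04 ± 0.09 where ATM did not pass.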
